A study of Homo sapiens with 8 samples.

Results

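The genes described here encode the machinery that copies DNA in S phase: 39 genes that license origins, activate the replicative helicase, synthesise and join the new strands, supply deoxynucleotides or maintain methylation behind the fork. They were found on the array through the transcript accession of each probe, which gave 51 probes, of which 49 passed the filters on detection and on the match between the dyes. All 39 genes kept at least 1 probe, out of 11203 named genes kept in all, and where a gene had several kept probes the brightest was used. The cells were L1236, an established Hodgkin lymphoma line with a high level of miR-155. One population was transduced with the empty pMSCV-PIG vector (EV) and the other with a miR-155 sponge, whose transcript offers binding sites that draw the microRNA away from its natural targets, and GFP+ cells were sorted from both. From each population, RNA of the total lysate (T) and RNA recovered with an antibody against Argonaute 2 (Ago2, which carries microRNAs and the transcripts they bind) were hybridised (IP). Each of the 4 groups (EV total, EV IP, sponge total, sponge IP) held 1 RNA sample, labelled once with Cy3 and once with Cy5, and IP and T of a population shared an array in both dye orientations. No comparison could therefore be tested. Every ± is the SD over the 2 dyes, or over the 2 orientations for a ratio of IP to T (IP/T), and leaves out the variation between cultures, transductions and precipitations.

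Replication starts where the origin recognition complex, CDC6 and CDT1 have loaded the ring-shaped MCM helicase onto DNA in G1. At the onset of S phase CDC45 and the GINS complex join the ring and turn it into a moving helicase, DNA polymerase alpha and primase lay down primers, and polymerases delta and epsilon extend them with the help of the PCNA clamp. Many of these genes are transcribed at the G1/S boundary under E2F factors. The replication-dependent histone genes are expressed in the same phase, but most of their transcripts end in a stem-loop in place of a poly(A) tail and are controlled largely through that end. They were set beside the replication genes here with earlier results of these data known. Their change in sponge cells is therefore no independent finding.

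The letters read by E2F factors were found at the start sites of some of these genes but not of all. They were not used to choose the members. The members are known genes of S phase, many of them under E2F factors, so their share is no independent finding. The stretches below show examples. Of the 39 genes, 33 had a promoter in the RefSeq table (GRCh38.p14), taken as 250 bases before and 50 bases after the start. TTTCCCGC, TTTCGCGC, TTTGGCGC or TTTGCCGC was found on either strand, overlapping matches included, in 17 of the 33 promoters (51.5%), against 908 of 27305 promoters in the table (3.33%) and 16 of 65 histone promoters (24.6%). CCAAT on either strand was found in 18 of the 33 (54.5%), against 35.7% of all promoters and 84.6% of those of the histone genes. In each of the following 30-base stretches, written 5′ to 3′ on the strand of the gene, capitals mark the match nearest to the start on its upstream side.
MCM3 (chr6:52284898-52284927, minus strand): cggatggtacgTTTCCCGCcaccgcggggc
MCM6 (chr2:135876511-135876540, minus strand): ggtcaggtttgGCGCGAAAtctccagctcc
CDT1 (chr16:88803743-88803772, plus strand): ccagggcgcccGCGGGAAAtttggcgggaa
GINS2 (chr16:85688967-85688996, minus strand): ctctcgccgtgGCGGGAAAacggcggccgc
POLA2 (chr11:65261898-65261927, plus strand): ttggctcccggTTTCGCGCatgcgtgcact
RFC3 (chr13:33818083-33818112, plus strand): atttggagctcGCGGGAAAacttgtctctg
PCNA (chr20:5126663-5126692, minus strand): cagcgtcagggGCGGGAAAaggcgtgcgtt
LIG1 (chr19:48170440-48170469, minus strand): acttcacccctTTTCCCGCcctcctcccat
The last base of the match lay between 24 bases (GINS2) and 167 bases (MCM3) upstream of the start in these 8 genes. GINS1, MCM10, FEN1, RFC2 and POLE2, on which the comparisons of sponge and EV cells turn below, had no match upstream of the start, although GINS1 and POLE2 had 1 at or after the start. These matches are letters in a window and no measurement of binding.

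The microRNA that the sponge was built to bind is shown with its seed (bases 2 to 8) in capitals, as RefSeq gives the mature form at chr21:25573983-25574006 (GRCh38.p14, plus strand).
miR-155-5p: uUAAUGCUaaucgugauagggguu
Binding sites for it in the transcripts of the replication genes were not analysed here.

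Nearly all replication genes gave a clear signal. At the probes used, 38 of the 39 genes were well above background in all 8 channels, and the exception was POLE, the catalytic subunit of polymerase epsilon, which was above background in 1 of the 2 channels of each group. The log2 signals of their probes, which are no measure of level between genes, had a median of 12.61, against 10.47 over all named genes. Between 61.0% and 65.7% of the spots were well above background in 7 of the channels, against 54.1% for sponge total RNA in Cy5, and no spot was saturated. All 8 listed marker genes of Hodgkin lines, among them TNFRSF8 (CD30), CCL17 and EBI3, were well above background in every T channel. Their changes from EV to sponge total RNA ran from -0.63 to 0.34 on the log2 scale, and the lowest was that of MIR155HG, the host transcript of miR-155 (-0.63 ± 0.12 in T, -0.38 in IP). Of the mature B-cell genes, MS4A1 (CD20) and SPI1 were in none, as were CD3D and CD3G of T cells, LYZ, CD68 and S100A9 of monocytes, and HBB of erythroid cells, while CD3E, CD2, CD14 and HBA1 had signals above background. CD3E, CD2 and CD14 were dim, with log2 signals of at most 7.63 in T, and their changes from EV to sponge total RNA were 0.49 ± 0.88, 0.33 ± 1.12 and 0.39 ± 0.38, which for CD3E and CD2 had opposite signs in the 2 dyes. The part of these transcripts in the results below was not tested.

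The first comparison asked which of the replication transcripts were recovered with Ago2. Their median log2 IP/T in EV cells was -0.36 ± 0.20 (-0.49 and -0.20 in the orientations taken alone), against -0.16 ± 0.03 over all named genes, a difference within the spread between the orientations. In sponge cells it was -0.29 ± 0.24, against -0.14 ± 0.04. IP/T reached 2-fold in EV cells for 3 of the 39 genes (7.69%, against 18.1% of all named genes) and T/IP reached 2-fold for 9 (23.1%, against 18.8%). In sponge cells the numbers were 4 (10.3%, against 17.7%) and 5 (12.8%, against 17.4%). After normexp background correction with loess normalisation, the 3 and 9 genes of EV cells became 3 and 3, with 11.8% and 5.38% of all named genes, and the median IP/T of all named genes moved from -0.16 to -0.01.

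**Figure D1:**
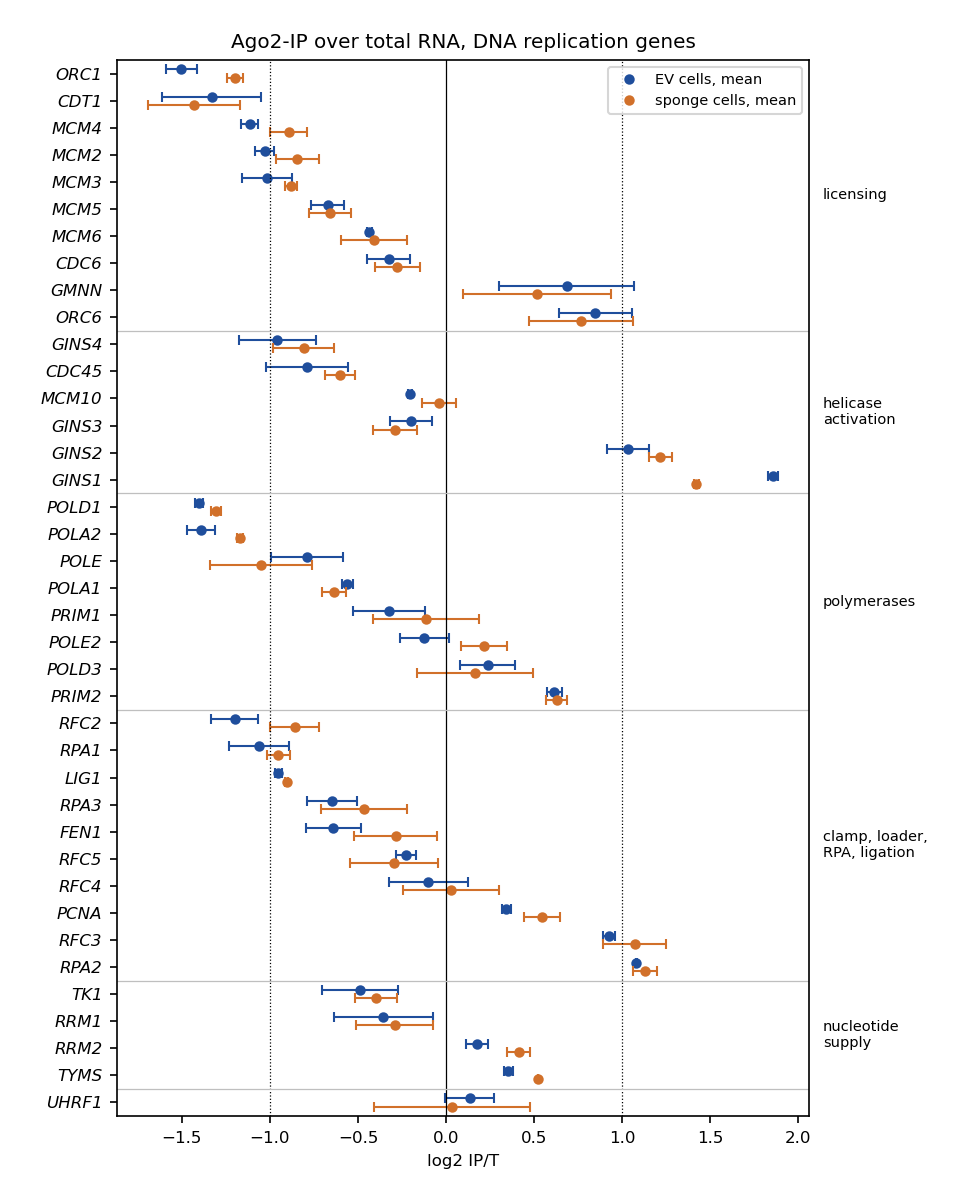
Log2 IP/T of the 39 replication genes (x axis) in EV cells (blue) and sponge cells (orange), grouped by role; points are means and bars span the values of the 2 dye orientations, and dotted lines mark 2-fold. The genes range from -1.50 (ORC1) to 1.86 (GINS1) in EV cells, each group but UHRF1 holds genes on both sides of 0, and the values of both populations lie close together.

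The order of the genes was nearly the same in both populations. Across the 39 genes, which are not independent replicates and share the slide, log2 IP/T correlated between EV and sponge cells with r = 0.979 (Spearman's rho 0.975). The correlation between the orientations was 0.943 within EV cells and 0.910 within sponge cells. Over all named genes the values were 0.981, 0.951 and 0.926. IP/T exceeded its own SD for 35 of the 39 genes in EV cells, 11 with more signal in IP and 24 with more in T. Of all named genes 86% did so in either direction.

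The licensing genes were the group recovered least with Ago2, with a median log2 IP/T of -0.85 ± 0.13 over 10 genes in EV cells and -0.75 ± 0.09 in sponge cells. ORC1 (A_23_P45799), an ATP-binding subunit of the origin recognition complex, had log2 signals of 10.08 in Cy3 and 9.95 in Cy5 in EV total RNA and of 8.54 and 8.49 in EV IP. In sponge cells the values were 9.99 and 9.92 in T and 8.77 and 8.74 in IP. Both IP channels thus lay below both T channels in either population, with an IP/T of -1.50 ± 0.12 in EV cells (2.84-fold more in T) and -1.20 ± 0.06 in sponge cells. CDT1, which loads the MCM ring, had -1.33 ± 0.40 in EV cells and -1.43 ± 0.37 in sponge cells. Its second probe gave -1.42 and -1.32. The helicase subunits MCM2, MCM3 and MCM4 had -1.03 ± 0.08, -1.02 ± 0.20 and -1.12 ± 0.07 in EV cells, and each was closer to 0 in sponge cells, at -0.84, -0.88 and -0.89. MCM5 and MCM6 (-0.67 ± 0.13 and -0.43 ± 0.02) and CDC6, the partner of CDT1 in loading (-0.33 ± 0.18), were less low in EV cells. On the other side of 0 lay ORC6, the smallest subunit of the origin recognition complex (0.85 ± 0.29), and GMNN, the inhibitor of CDT1 (0.69 ± 0.54), whose value differed widely between the orientations.

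Within the GINS complex, whose 4 subunits sit together in the active helicase, the transcripts ran from a log2 IP/T of 1.86 down to -0.96 in EV cells. GINS1 (A_23_P210853) had log2 signals of 9.69 (Cy3) and 9.70 (Cy5) in EV total RNA, 11.58 and 11.51 in EV IP, 9.77 and 9.75 in sponge total RNA, and 11.15 and 11.21 in sponge IP. All 4 IP channels lay above all 4 T channels, with an IP/T of 1.86 ± 0.04 in EV cells (3.62-fold) and 1.42 ± 0.02 in sponge cells (2.68-fold), the highest of the replication genes in both. GINS2 (A_23_P118246) had 14.17 and 14.003 in EV total RNA, 15.15 and 15.09 in EV IP, 14.23 and 14.05 in sponge total RNA, and 15.33 and 15.38 in sponge IP. Its T and IP channels did not overlap either, with an IP/T of 1.03 ± 0.17 and 1.22 ± 0.09. GINS3 had -0.20 ± 0.17 in EV cells, where its second probe gave 0.05, so that its side of 0 was not settled. GINS4 had -0.96 ± 0.31, and its second probe gave -1.13. Over the 13 alternatives it ran from -1.17 to -0.24 in EV cells. CDC45, which joins the ring together with GINS, had -0.79 ± 0.33, and MCM10, needed for the activation of the helicase, -0.21 ± 0.01.

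The polymerases, the clamp loader and the single-strand binding protein showed the same kind of spread between subunits of one complex. POLD1 (A_23_P50456), the catalytic subunit of polymerase delta, had log2 signals of 13.26 and 13.23 in EV total RNA, 11.86 and 11.84 in EV IP, 13.44 and 13.37 in sponge total RNA, and 12.09 and 12.11 in sponge IP. IP lay below T in every channel, at -1.40 ± 0.03 and -1.31 ± 0.04, and the second probe gave -1.61 and -1.56. The accessory subunit POLD3 had 0.24 ± 0.22 in EV cells. In polymerase alpha-primase the second subunit POLA2 had -1.39 ± 0.12 and the catalytic subunit POLA1 -0.56 ± 0.04, whereas the primase subunits PRIM1 and PRIM2 had -0.32 ± 0.29 and 0.61 ± 0.06. Over the 13 alternatives POLA2 ran from -1.47 to -0.63 in EV cells. Of polymerase epsilon, POLE2 had -0.12 ± 0.20 and the dim probe of POLE -0.79 ± 0.29.

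Among the subunits of the clamp loader, RFC2 (-1.20 ± 0.19) and RFC3 (0.92 ± 0.05) lay at opposite ends, with RFC5 (-0.23 ± 0.08) and RFC4 (-0.10 ± 0.32) between them. RPA2 (A_23_P86133), the middle subunit of the single-strand binding protein, had log2 signals of 13.36 and 13.39 in EV total RNA, 14.47 and 14.44 in EV IP, 13.34 and 13.18 in sponge total RNA, and 14.38 and 14.40 in sponge IP. The fractions did not overlap, with an IP/T of 1.08 ± 0.00 and 1.13 ± 0.10. The large subunit RPA1 (-1.06 ± 0.24) and the small subunit RPA3 (-0.65 ± 0.20) lay on the other side of 0. Of the enzymes that finish the lagging strand, the ligase LIG1 had -0.95 ± 0.03 and the flap nuclease FEN1 -0.64 ± 0.22. PCNA, the clamp itself, had 0.34 ± 0.03 in EV cells and 0.55 ± 0.14 in sponge cells.

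The enzymes of nucleotide supply stayed nearer to 0. In EV cells, TYMS (thymidylate synthase) had 0.35 ± 0.04, TK1 (thymidine kinase) -0.49 ± 0.31, and RRM1, the large subunit of ribonucleotide reductase, -0.36 ± 0.40. The small subunit RRM2 had 0.18 ± 0.09 at the brighter probe and 0.93 at the other. UHRF1, which brings the maintenance methyltransferase to newly copied DNA, had 0.13 ± 0.20 at one probe and -0.48 at the other, and no side is given for it.

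The second comparison asked whether the replication genes were at another level in sponge cells. In total RNA they were not shifted as a group. The median of sponge minus EV over the 39 genes was 0.02 ± 0.05 on the log2 scale (0.05 in Cy3 and -0.02 in Cy5), against -0.01 ± 0.03 over all named genes. The Cy5 value rests on the channel with the fewest spots above background (54.1%), whose part was not tested. Higher in sponge cells in both dyes, at any size, were 15 genes (38.5%, against 29.3% of all named genes), and 10 were lower in both (25.6%, against 31.9%). None of the 39 reached a mean change of 0.32 on the log2 scale with the same sign in both dyes, a size that 5.32% of all named genes reached upward and 4.82% downward. Of 4027 named genes within the middle 50% of the replication genes in signal, only 1.54% and 1.51% reached it. In bulk RNA, fewer cells in S phase and less RNA of these genes per cell cannot be told apart.

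The single changes in T were small, and most were of the size of the spread between the dyes. The change exceeded its own SD for 19 of the 39 genes, against 49.8% of all named genes. The lowest value was that of FEN1 (A_24_P84898), with log2 signals of 11.59 and 11.81 in EV total RNA against 11.29 and 11.64 in sponge total RNA. It was lower in sponge cells within either dye, by 0.30 and 0.17, although the Cy5 value of sponge cells lay above the Cy3 value of EV cells. The mean change was -0.24 ± 0.09, and the second probe of FEN1 gave -0.31. RFC2 (-0.18 ± 0.10), RFC3 (-0.16 ± 0.19), POLE2 (-0.13 ± 0.06) and RPA2 (-0.12 ± 0.14) were the next lowest of the 10 genes lower in both dyes.

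On the upper side, RRM1 (A_23_P87351) had 12.82 and 12.61 in EV total RNA against 13.16 and 12.77 in sponge total RNA, a change of 0.25 ± 0.13. MCM10 (A_23_P161474) had 9.34 and 9.41 against 9.73 and 9.52, so that both sponge channels lay above both EV channels, and changed by 0.25 ± 0.20, with 0.28 at its second probe. POLD1 had 0.16 ± 0.03, with 0.28 at the second probe, and CDT1 0.15 ± 0.08, with 0.00 at the second probe. The 2 probes of ORC6 went opposite ways (0.21 and -0.23), as did those of UHRF1 (0.08 and -0.28), and POLE, with 0.26 ± 0.31, was dim. PCNA (-0.03 ± 0.16), MCM6 (-0.01 ± 0.30) and RFC5 (0.00 ± 0.18) had changes of opposite sign in the 2 dyes.

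**Figure D2:**
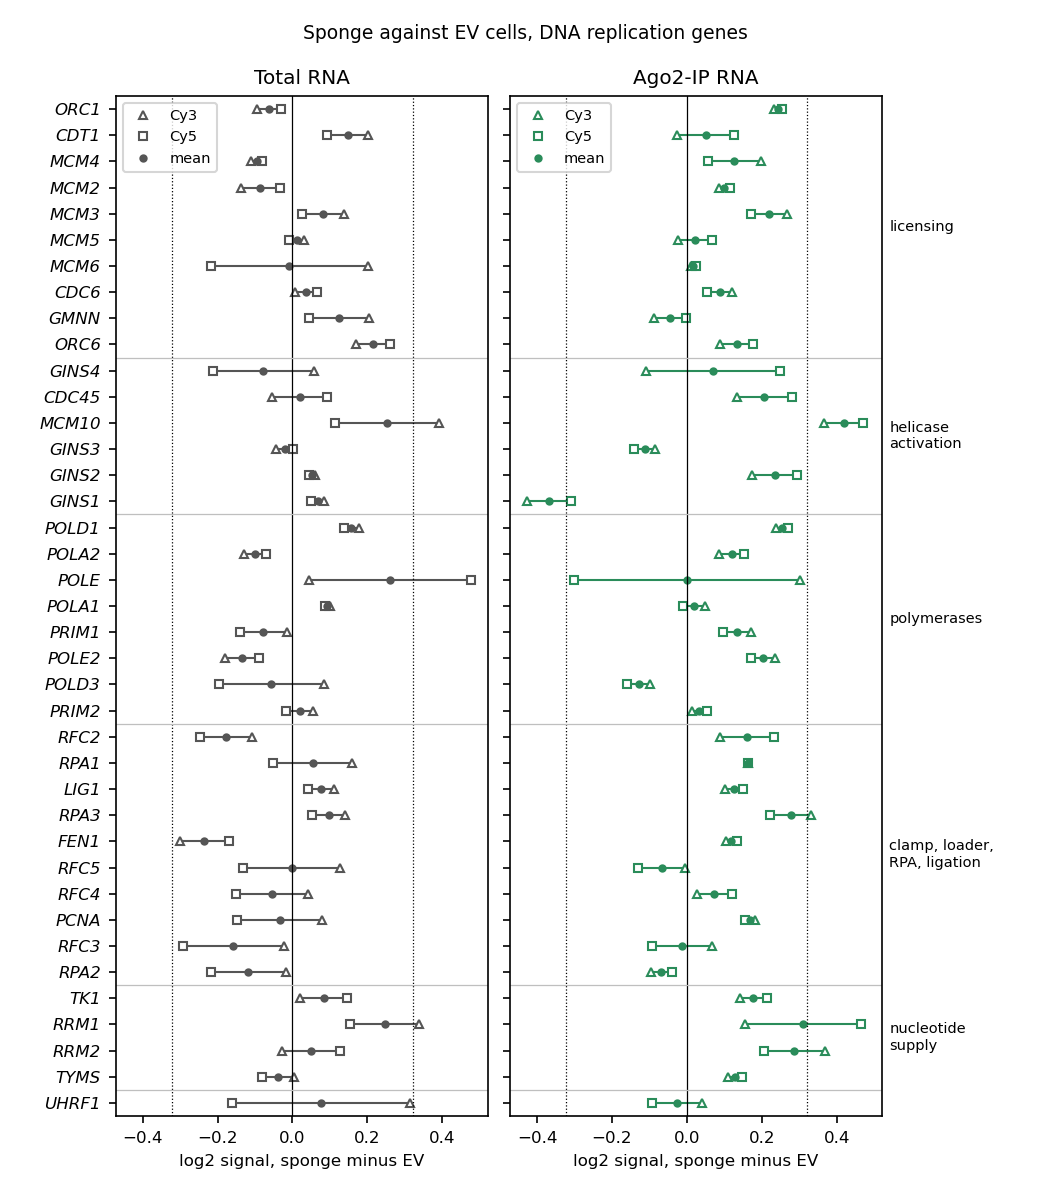
Log2 signal of sponge minus EV cells for the 39 replication genes in total RNA (left) and in Ago2-IP RNA (right), with Cy3 as triangles, Cy5 as squares and the mean as a dot; dotted lines mark a change of 0.32. In T the genes scatter around 0 and the dyes often differ, whereas in IP 26 of the 39 genes lie to the right of 0 in both dyes, with GINS1 the lowest and MCM10 the highest.

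The histone genes, read the same way on the same channels, were higher in sponge total RNA. Of 70 listed replication-dependent histone genes 59 were kept, and their median change in T was 0.29 ± 0.05 (0.35 in Cy3 and 0.29 in Cy5), or 1.22-fold. Of the 59, 52 were higher in both dyes (88.1%, against 29.3% of all named genes), 26 by a mean of at least 0.32 (44.1%, against 5.32%). None was lower in both, against 31.9% of all named genes. The change was seen in every class, with medians of 0.43 for H2B (16 genes), 0.30 for H4 (13), 0.26 for H2A (13), 0.19 for H1 (5) and 0.18 for H3 (12). H2AC18 (A_23_P103981) had log2 signals of 12.29 and 12.54 in EV total RNA against 13.18 and 13.67 in sponge total RNA, a change of 1.01 ± 0.17, and H1-2, H2BC12, H2BC3 and H4C12 followed with 0.59 ± 0.09, 0.56 ± 0.02, 0.55 ± 0.06 and 0.50 ± 0.04. Histone genes of a class are near-identical in sequence, so their probes can share transcripts and the counts are not counts of independent genes. How far the labelling copied transcripts without a poly(A) tail was not tested, so these signals may not stand for all histone transcripts. SLBP, which binds the stem-loop of histone transcripts, was slightly lower in sponge cells (-0.18 ± 0.11 in T). The histone genes and the replication genes thus differed in T, where the interval from the lower to the upper quartile ran from 0.20 to 0.42 for the histone genes and from -0.07 to 0.08 for the replication genes.

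Other lists of cell cycle genes were read in the same way. For comparison, 29.3% of all named genes were higher and 31.9% lower in T in both dyes. A mean of 0.32 was passed by 5.32% upward and 4.82% downward. Of 47 further replication genes that are not among the 39, the median change in T was 0.02 ± 0.06, with 16 higher and 12 lower in both dyes and none past 0.32. Among them MCM7, the remaining common subunit of the MCM ring, had 0.19 ± 0.06, and POLD2, a subunit of polymerase delta, -0.25 ± 0.05. Of 33 genes of mitosis, 23 were higher and 4 lower in both dyes, with a median of 0.10 ± 0.05, and 1, INCENP of the chromosomal passenger complex, passed 0.32 (0.46 ± 0.24). Of 20 genes of cell cycle entry and exit, 5 were higher and 9 lower in both dyes, with a median of -0.07 ± 0.04. The highest of these was CDKN1A, the inhibitor p21, at 0.51 ± 0.12 in T and 0.52 ± 0.03 in IP. The proliferation marker MKI67 had 0.03 ± 0.10 in T, and E2F1, a factor that drives replication genes, -0.14 ± 0.02.

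**Figure D3:**
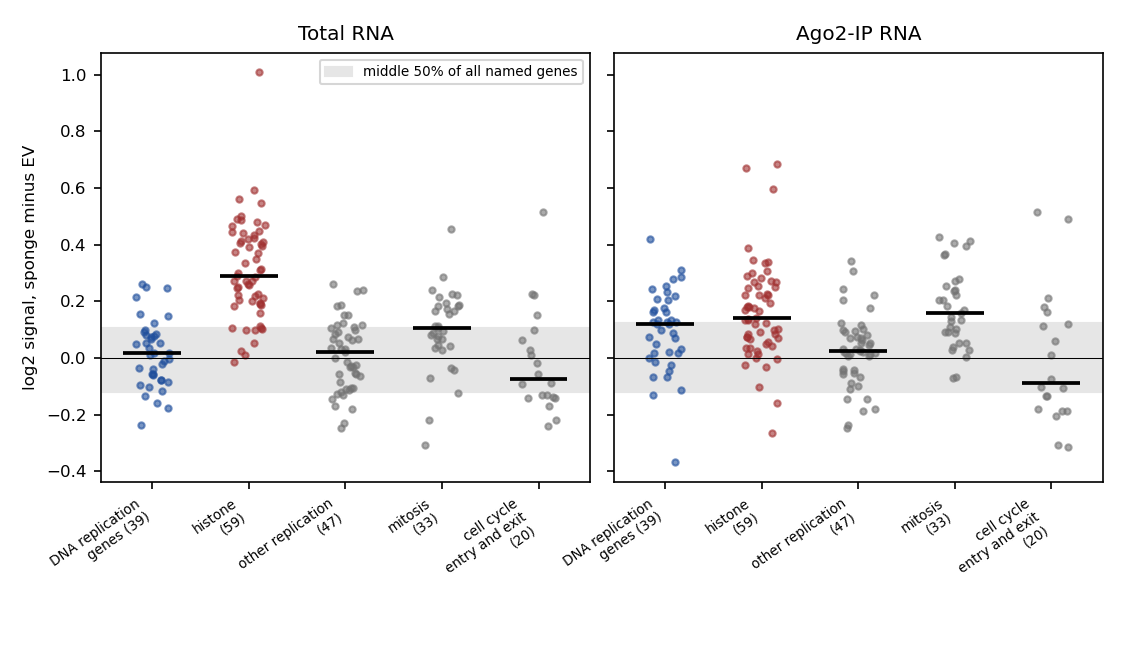
Log2 signal of sponge minus EV cells for each gene of 5 lists in total RNA (left) and Ago2-IP RNA (right), means of both dyes, with a line at each list's median and a grey band for the middle 50% of all named genes. In T the histone genes stand above the band (median 0.29) and the replication genes lie within it (0.02); in IP the medians are 0.14 and 0.12.

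In the Ago2 fraction the replication genes were mostly higher in sponge cells, by small amounts. Their median change in IP was 0.12 ± 0.02 (0.10 in Cy3 and 0.13 in Cy5), or 1.09-fold, against 0.00 ± 0.01 over all named genes. Of the 39 genes, 26 were higher in both dyes (66.7%, against 37.6% of all named genes) and 6 were lower (15.4%, against 36.4%). The distance was smaller against genes near the middle of the replication genes in brightness and in recovery with Ago2. Of 1647 named genes within the middle 50% of the replication genes in both signal and IP/T of EV cells, 49% were higher in IP in both dyes and 29.4% lower, with a median of 0.04. These ranges were 10.64 to 13.69 in signal and -0.96 to 0.21 in IP/T. Replication genes outside them, among them MCM10 and GINS1, are not matched by the 1647 genes. At a mean change of 0.32 or more with the same sign in both dyes the counts were 1 up and 1 down, MCM10 and GINS1 (2.56% each). Of all named genes 4.56% and 4.17% reached this size, and of the 1647 genes 3.4% and 1.09%. None of the 39 had a mean change of 2-fold in IP with the same sign in both dyes, which 0.0893% of all named genes did upward and 0.0625% downward. The change in IP exceeded its own SD for 30 of the 39 genes, 26 of them higher, against 65.1% of all named genes in either direction. EV IP and sponge IP each came from a single precipitation, and how far precipitations of one population differ was not measured.

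At the probes used, the genes higher in IP came from every role but maintenance of methylation. That role held 1 gene, UHRF1 (-0.03 ± 0.09), whose second probe was higher in both dyes (0.14). Against 37.6% of all named genes, those higher in both dyes were 7 of 10 licensing genes, 3 of 6 genes of helicase activation and 5 of 8 polymerase and primase genes. They were also 7 of 10 genes of clamp, loader, single-strand binding and ligation, and all 4 genes of nucleotide supply. MCM10 had log2 signals of 9.21 and 9.13 in EV IP against 9.58 and 9.60 in sponge IP, so that the populations did not overlap, a change of 0.42 ± 0.07 (1.34-fold) with 0.30 at the second probe. RRM1 had 12.54 and 12.18 against 12.69 and 12.65 (0.31 ± 0.22), RPA3 had 0.28 ± 0.08, and RRM2 had 0.29 ± 0.12, with 0.10 at the second probe. POLD1 had 0.25 ± 0.02, with 0.33 at the second probe, ORC1 0.24 ± 0.01, GINS2 0.23 ± 0.09, MCM3 0.22 ± 0.07, CDC45 0.21 ± 0.11 and PCNA 0.17 ± 0.02.

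The lowest change in IP was that of GINS1. Its signals of 11.58 and 11.51 in EV IP stood above 11.15 and 11.21 in sponge IP, a difference of -0.37 ± 0.08, so that sponge cells had 1.29-fold less, while in T the change was 0.07 ± 0.03. The other genes lower in IP in both dyes were POLD3 (-0.13 ± 0.04), GINS3 (-0.11 ± 0.04, with 0.10 at its second probe), RPA2 and RFC5 (-0.07 each, ± 0.04 and ± 0.09) and GMNN (-0.05 ± 0.06). GINS1 had 1 probe on the array, so that no second probe could be set beside its values.

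**Figure D4:**
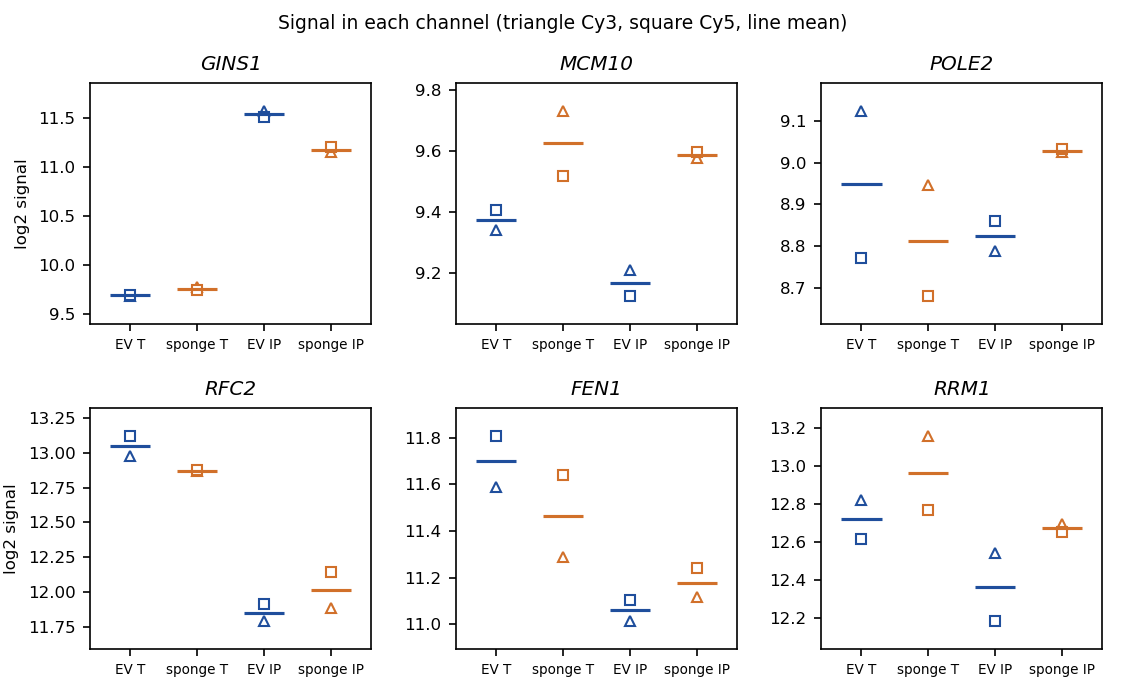
Log2 signal of 6 replication genes in each of the 8 channels (triangle Cy3, square Cy5, line the mean of both), each panel with its own y axis. GINS1 is higher in IP than in T and lower in sponge IP than in EV IP; MCM10 and RRM1 are higher in sponge cells in both fractions; POLE2, RFC2 and FEN1 are lower in sponge cells in T and higher in IP, dye by dye.

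The replication genes and the histone genes thus differed in how T and IP related. Of the 39 replication genes, 16 were higher in IP in both dyes without being so in T. This was 41%, against 21% of all named genes and 29.8% of the 1647 genes. Lower in T and higher in IP in both dyes were 8 genes (20.5%, against 8.7% and 14%). They were MCM2, MCM4, POLA2, PRIM1, POLE2, RFC2, FEN1 and ORC1. Of these 8 genes only FEN1 lay within the ranges of the 1647 in signal and IP/T. At the second probe of FEN1 the change in IP was 0.07 ± 0.23, with opposite signs in the 2 dyes. The reverse, higher in T and lower in IP, was seen for GINS1 and GMNN (5.13%, against 5.68% and 3.95%). RFC2 (A_23_P93823) had 12.98 and 13.12 in EV total RNA, 12.87 and 12.88 in sponge total RNA, 11.79 and 11.91 in EV IP, and 11.88 and 12.14 in sponge IP. POLE2 (A_23_P163099) had 9.12 and 8.77, 8.95 and 8.68, 8.79 and 8.86, and 9.02 and 9.03 in the same order. For both genes the sponge value was below the EV value in T and above it in IP within either dye, but after normexp with loess normalisation the changes of POLE2 were 0.0407 in T and 0.0503 in IP.

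The change of IP/T from EV to sponge cells uses all 8 channels and so shares them with the comparisons above. Its median over the replication genes was 0.11 ± 0.03, against 0.01 ± 0.01 over all named genes and 0.05 ± 0.03 over the 1647 genes. It was positive in both orientations for 22 of the 39 genes (56.4%, against 33.6% of all named genes and 45.6% of the 1647) and negative in both for 6 (15.4%, against 29.8% and 21.9%), namely CDT1, GMNN, GINS1, GINS3, POLA1 and POLE. The second probes of CDT1 and GINS3 went the other way (0.10 and 0.19), and the probe of POLE was dim. Of the 10 genes with a second kept probe, 6 had the same sign at both. A mean change of 0.32 or more, with the same sign in both orientations, was reached upward by FEN1 (0.35 ± 0.11), POLE2 (0.34 ± 0.02) and RFC2 (0.34 ± 0.01). These were 7.69% of the genes, against 6.51% of all named genes and 4.13% of the 1647. Downward it was reached by GINS1 (-0.44 ± 0.06), 2.56% against 5.5% and 0.425%. Of FEN1, POLE2, RFC2 and GINS1, only FEN1 lay within the ranges of the 1647 in signal and IP/T. FEN1 gave 0.38 at its second probe. After normexp background correction with loess normalisation these 3 genes were at 0.253 (FEN1), 0.00955 (POLE2) and 0.236 (RFC2), so that none of the 3 reached 0.32. The histone genes had a median of -0.17, with 42 of 59 lower and 4 higher in both orientations, their change in T (0.29) being larger than that in IP (0.14 ± 0.08).

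The higher level in IP was not particular to the 39 genes. For comparison, 37.6% of all named genes were higher in IP in both dyes and 36.4% lower, and 4.56% reached 0.32 upward. Of the genes of mitosis, 28 of 33 were higher in IP in both dyes and 2 lower, with a median of 0.16 ± 0.00, and 6 reached a mean of 0.32 (AURKB, CDC20, CENPA, KIF20A, KIF2C and TPX2). Of the 47 further replication genes 25 were higher and 13 lower, with a median of 0.03 ± 0.01, among them TOP2A, a topoisomerase that untangles copied chromosomes (0.34 ± 0.18), and MCM7 (0.31 ± 0.05). Of the genes of cell cycle entry and exit 8 were higher and 11 lower, with a median of -0.09 ± 0.00. These lists were compared by counts and medians alone, and the differences between them were not tested.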

How the data were processed

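Per the file headers, the authors extracted the intensity of each spot with Agilent Feature Extraction (version 10.7.3.1 in the headers, 10.5.1.1 in the labels), with background subtracted and dyes corrected. The 8 deposited files are 4 distinct arrays from 1 slide and 1 scan, and each sample was read in its own dye. The deposited series table holds normalised log2 values by the authors for 22282 probes, 22268 of which were also kept here. It served as an alternative (rank correlation with the values here 1). Its scale and direction per channel were settled by this match, and how it was centred is not given in the sources used here.

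Control spots and spots marked as outliers were dropped, and repeat spots averaged. Following the study's methods, log2 processed signals were quantile normalised over the 8 channels. Of 41000 probes, 25827 were well above background in at least 4 channels, and 3356 with a Cy3 to Cy5 difference over 2-fold in any RNA sample were removed, which left 22471. The RefSeq gene table (GRCh38.p14) named 15627 of them (69.5%), for 11203 genes. A gene with several kept probes was read at the brightest. IP/T and changes are differences of log2 means over both dyes. Changes were counted with the same sign in both dyes at any size, at 0.32 (log2) and at 2-fold, and IP/T at 2-fold, beside the same count over all named genes. With 1 RNA sample per group there is no test, and precision is limited by the number of arrays.

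The members, their roles and the lists (histone genes, further replication genes, mitosis, cell cycle entry and exit, cell type markers) were chosen with earlier results of these data known. Any member could be named. Of the other lists, up to 5 genes with the largest difference in T each way with the same sign in both dyes were eligible, and SLBP, TOP2A, MKI67 and CDKN1A in any case. The mitosis genes past 0.32 in IP were named after their values were seen.

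Alternatives were normexp (offset 50) on median signals with loess and Aquantile in limma 3.58.1 (R 4.3.3), scaling to the 75th percentile, the authors' values, other detection and dye filters, single dyes, single orientations, the mean over probes and, added after the data were seen, the dimmest kept probe. The steps were tested on simulated data. Python 3.11.15, numpy 2.4.6 and pandas 2.3.3 were used.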

Additional observations from a re-analysis of the deposited data

Results flagged for a closer look

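For 10 of the 39 replication genes the change from EV to sponge cells had opposite signs in total RNA and in the Ago2 fraction, with the same sign in both dyes of each fraction. The difference between the fractions was not tested, since each group held 1 RNA sample. The values are log2 changes, first in T and then in IP. Lower in T and higher in IP were FEN1 (-0.235 and 0.119), RFC2 (-0.177 and 0.162), POLE2 (-0.135 and 0.204), POLA2 (-0.101 and 0.12), MCM4 (-0.0956 and 0.126), MCM2 (-0.0856 and 0.1), PRIM1 (-0.0773 and 0.133) and ORC1 (-0.0615 and 0.244). Higher in T and lower in IP were GINS1 (0.0677 and -0.368) and GMNN (0.125 and -0.0454). After normexp background correction with loess normalisation POLE2 had 0.0407 and 0.0503, with no difference in sign, and 7 and 1 genes in place of 8 and 2 had the patterns. Of all named genes 8.7% and 5.68% had these patterns, and of the 1647 genes near the middle of the replication genes in signal and IP/T 14% and 3.95%. Of the 59 histone genes 0 and 1 had them. Of the 10 replication genes named, only FEN1 lay within the ranges of the 1647. At its second probe the change in IP was 0.07 ± 0.23, with opposite signs in the 2 dyes, so that this probe did not show the pattern.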

How the results depend on the processing

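Each group held 1 RNA sample, so no alternative speaks to variation between cultures. Over 13 alternatives the median change of the replication genes in IP stayed positive (0.0892 to 0.134), as did their change in IP/T (0.0604 to 0.148) and the histone change in T (0.279 to 0.35), whereas their median change in T was positive in 10 and negative in 3 (-0.0164 to 0.0546). The number of replication genes higher in IP ranged from 26 to 30. Normexp with loess and Aquantile gave a median change in IP of 0.0892, and 3 genes with T/IP of 2-fold in EV cells, 2 with IP/T and 2 with T/IP of 2-fold in sponge cells, while the median IP/T of all named genes became -0.0057 (EV, from -0.163) and -0.00084 (sponge, from -0.135). IP/T of the dim POLE in sponge cells went to 0.00636 there, and the cause was not tested. Leaving out 1 dye put the change in IP/T at 0.0604 (Cy3 labels alone) or 0.148 (Cy5 labels alone), the histone change in T at 0.285 to 0.35, the genes higher in T at 18 to 26 and the genes lower in T at 13 to 21, where a sign is asked of 1 dye in place of 2. The arrays with IP in Cy5 gave 0.35 for the histone change in T and 26 genes higher in T, and those with IP in Cy3 gave 21 lower in T. For single genes the values moved by less than the spread between dyes in 479 of 504 cases for the change in IP, 485 for that in T, 430 for that in IP/T, and 463 (EV) and 461 (sponge) for IP/T. The authors' values, detection in all 8 channels and a dye limit of 1.5-fold left 38 of the 39 genes. No paired analysis was possible because the replicate numbers name the dyes of 1 RNA sample per group.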
